A study of Homo sapiens with 12 samples.

Results

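CDKN1C and its neighbours in the imprinted cluster of chromosome band 11p15 were followed in relapses of HEL cells, an established human acute myeloid leukemia line with erythroid and megakaryocytic features. The cluster was taken as 10 of the 26481 genes of the count table, matched by symbol: CDKN1C, KCNQ1, KCNQ1OT1, SLC22A18, PHLDA2, NAP1L4 and TSSC4 around the KCNQ1OT1 transcript, and H19, IGF2 and MRPL23-AS1 around H19. CDKN1C was chosen by its counts of 0 in the relapses after decitabine, and the other members as its neighbours on 11p15. Earlier results of these data were known when the members were listed, and not every near gene is a member, such as KCNQ1DN, 15.7 kb away. The values of CDKN1C in the decitabine relapses are thus a description and carry no test. Its neighbours were tested, but were not picked blind to these data. The question was whether the loss of CDKN1C counts was shared by the cluster.

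The cells were barcoded HEL cells from 1 starting line and were sequenced as 12 libraries in 4 groups. All cultures were followed for about 30 days after a first incubation of 72 to 74 h, in which NT (n = 2) received dimethyl sulfoxide, Doxo (n = 3) 1.8 µM doxorubicin, Doxo+Cyta (n = 3) 1.8 µM doxorubicin and 6 µM cytarabine, and Doxo+Cyta+DAC (n = 4) the same 2 drugs and 0.1 µM decitabine. The last 3 groups are relapses, in that the surviving cells had regrown to the seeded number. No group with decitabine alone was analysed here, so decitabine was compared only on top of both other drugs.

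Imprinted genes are transcribed mainly from the copy inherited from 1 parent. In the first of the domains, the long noncoding RNA KCNQ1OT1 is made from the paternal copy, where its start region is unmethylated, and keeps CDKN1C, KCNQ1, SLC22A18 and PHLDA2 silent on that copy. In the H19 domain, a methylated control region decides whether H19 or the growth factor IGF2 is transcribed. Decitabine inhibits DNA methyltransferases and lowers DNA methylation when cells divide. Read counts per gene do not separate the parental copies, and no methylation was measured in these libraries.

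Promoters are shown for 4 genes whose levels went different ways, since CG dinucleotides are the bases that DNA methyltransferases act on. MRPL23-AS1 and KCNQ1DN, a noncoding neighbour of CDKN1C, fell in the decitabine relapses, whereas TSSC4 and NAP1L4 did not pass the test. Each is the RefSeq sequence of GRCh38.p14, from 250 bases before to 50 bases after the start, on the strand of the gene, with every CG in capitals. The 4 windows are chr11:1989871-1990170 on the minus strand, chr11:2869783-2870082 on the plus strand, chr11:2400500-2400799 on the plus strand and, for the first of 4 NAP1L4 starts, chr11:2992280-2992579 on the minus strand.
MRPL23-AS1: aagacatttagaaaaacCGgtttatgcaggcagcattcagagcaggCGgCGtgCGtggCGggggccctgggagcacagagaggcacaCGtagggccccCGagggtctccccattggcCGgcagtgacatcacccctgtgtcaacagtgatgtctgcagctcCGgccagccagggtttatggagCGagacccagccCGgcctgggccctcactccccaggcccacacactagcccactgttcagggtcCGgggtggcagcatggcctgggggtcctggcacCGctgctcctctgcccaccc
KCNQ1DN: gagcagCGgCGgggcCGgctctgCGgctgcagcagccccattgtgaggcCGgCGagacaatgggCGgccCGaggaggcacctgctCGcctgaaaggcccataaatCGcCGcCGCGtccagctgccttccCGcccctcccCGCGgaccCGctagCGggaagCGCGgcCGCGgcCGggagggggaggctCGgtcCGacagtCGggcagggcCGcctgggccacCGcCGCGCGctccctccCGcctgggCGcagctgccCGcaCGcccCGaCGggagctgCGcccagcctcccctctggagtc
TSSC4: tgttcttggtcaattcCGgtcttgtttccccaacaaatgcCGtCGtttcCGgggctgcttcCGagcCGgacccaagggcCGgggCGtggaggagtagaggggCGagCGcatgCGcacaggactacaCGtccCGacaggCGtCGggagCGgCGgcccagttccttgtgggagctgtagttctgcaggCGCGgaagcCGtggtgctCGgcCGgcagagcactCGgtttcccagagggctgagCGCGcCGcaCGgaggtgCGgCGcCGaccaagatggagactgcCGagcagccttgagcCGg
NAP1L4: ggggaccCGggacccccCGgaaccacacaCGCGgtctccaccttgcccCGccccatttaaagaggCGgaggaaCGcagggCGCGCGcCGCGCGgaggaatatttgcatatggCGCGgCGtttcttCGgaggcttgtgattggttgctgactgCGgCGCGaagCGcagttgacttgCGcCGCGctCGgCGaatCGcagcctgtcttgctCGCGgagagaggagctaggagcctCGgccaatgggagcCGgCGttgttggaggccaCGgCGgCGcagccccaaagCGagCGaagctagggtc

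The letters CG, which read the same on both strands, stood 13 times in the MRPL23-AS1 promoter and 38 times in that of KCNQ1DN. TSSC4 held 32 and NAP1L4 37 at the start shown, with 43, 35 and 11 at the further NAP1L4 starts. Whether the number of CG goes with the change in level was not tested. Of 35116 promoters of the same length, 51.7% held at least 13 CG, 9.91% at least 38, 18.9% at least 32 and 11.3% at least 37, and the median was 14. The letters CCAAT, read on both strands and sharing no bases with CG, occurred 1 time in the MRPL23-AS1 promoter, 2 times in that of NAP1L4 and in neither of the others, and 34.6% of all promoters held them. RefSeq entries matched 4 of the 10 members, among them H19, whose promoter held 6 CG. CDKN1C, KCNQ1, KCNQ1OT1, SLC22A18, PHLDA2 and IGF2 were not matched.

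Levels are given as counts or as CPM (TMM-scaled counts relative to library size), and a gene with at most 3 counts in a library was taken as not above the detection limit there, which was 0.157 to 0.235 CPM. Total counts were 12763582 to 19106235 per library. The cells carried all 9 markers of HEL, with at least 515 counts of each in every library, while the 10 markers of T cells, B cells, fibroblasts, epithelium and macrophages reached at most 19 counts, in COL1A1. In the decitabine relapses 4 of the 9 HEL markers were lower than in NT and 0 higher, led by JAK2 (-1.40 on the log2 scale), KLF1 (-0.71) and GATA1 (-0.62), beside 48.7% of all tested genes in either direction (edgeR, adjusted p under 0.05). Against Doxo 6 of the 9 were lower (59.5% of all genes) and against Doxo+Cyta 8 were lower (60.3%), with 0 higher in both. In 6 of the 9 every decitabine relapse lay below all other libraries, beside 20.1% of all tested genes. The part of this shift in the levels below was not tested. Libraries Doxo 4 and Doxo+Cyta 20 stood apart from the others of their groups, with a chi-square per degree of freedom of 27.3 to 29.7 and 46.7 to 48.5 against 3.10 and 7.33 between the remaining pairs, so results that turn on them are given with and without them.

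Across the cluster, the decitabine relapses had no reads of CDKN1C and lower levels of SLC22A18 and MRPL23-AS1, whereas KCNQ1OT1, PHLDA2, NAP1L4 and TSSC4 were not called different. KCNQ1, H19 and IGF2 were barely counted in any group. Of the 9 members besides CDKN1C, 6 had enough counts to be tested. The decitabine relapses differed from NT in 2 of these 6 (adjusted p under 0.05, edgeR quasi-likelihood test), both lower, beside 48.7% of the 14164 tested genes in either direction and 23.7% lower. SLC22A18 and MRPL23-AS1 were also the 2 members called against Doxo (59.5% of all genes) and against Doxo+Cyta (60.3%). The share of 2 in 6 (33.3%) lay under that called in either direction and above the 23.7% called lower. With 6 genes tested it is not read as an excess, but both falls were large. MRPL23-AS1 had enough counts to be tested only through the groups other than Doxo+Cyta+DAC. Changes past 1 on the natural log scale and lower were seen in 5.51% of tested genes against NT, 6.81% against Doxo and 7.67% against Doxo+Cyta, and both genes were among them each time. The 3 comparisons share the same decitabine libraries.

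**Figure D1:**
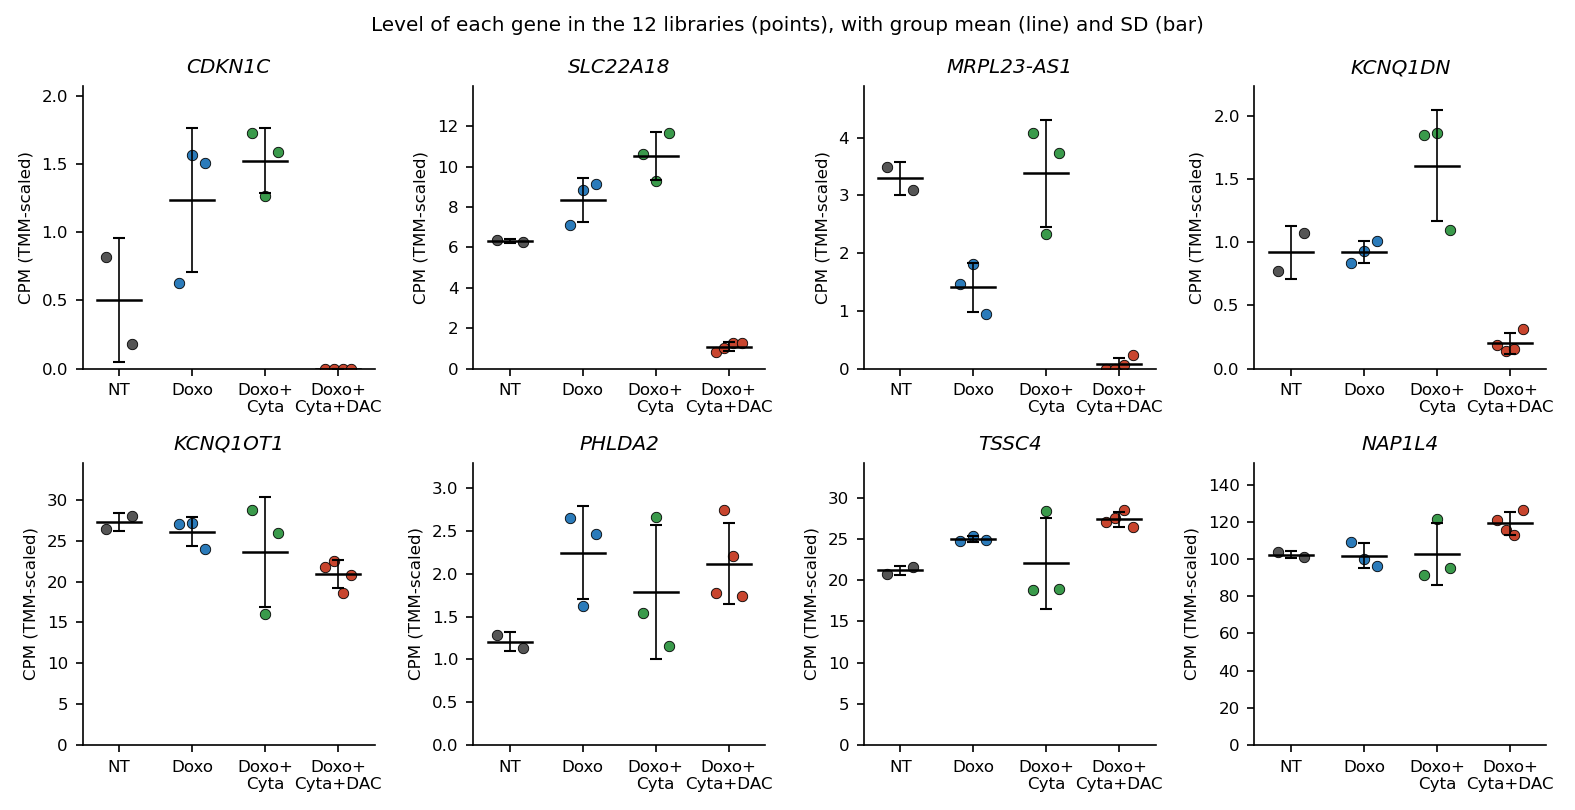
Level in CPM (TMM-scaled, vertical axis, starting at 0 and scaled per gene) of 8 genes in the 12 libraries, by group, with points for libraries, lines for group means and bars for SD. The 4 Doxo+Cyta+DAC libraries sit at 0 for CDKN1C and below every other library for SLC22A18, MRPL23-AS1 and KCNQ1DN (top row), and differ from NT by less than 1 log2 unit for KCNQ1OT1, PHLDA2, TSSC4 and NAP1L4 (bottom row).

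CDKN1C encodes p57Kip2, an inhibitor of cyclin-dependent kinases that holds cells out of the cycle (chr11:2883218-2885765, minus strand, GRCh38). Its counts were 16 and 3 in NT, 9, 27 and 24 in Doxo, 28, 19 and 26 in Doxo+Cyta, and 0 in all 4 libraries with decitabine. The decitabine relapses were the only group in which no library held a read of it. NT was low and uneven, and its second library lay at the detection limit. Measured against a limit of 3 counts per library, CDKN1C was at least 2.55-fold higher in NT, 6.31-fold higher in Doxo and 7.79-fold higher in Doxo+Cyta than in Doxo+Cyta+DAC. The bound for NT rested on its first library, since without it NT is at the limit and gives no fold, and without its second library the bound was 4.19-fold. Between groups that the choice of the gene did not use, CDKN1C was not called different. On the log2 scale its difference was 1.27 for Doxo over NT (SE 0.58, adjusted p = 0.179, edgeR) and 1.56 for Doxo+Cyta over NT (SE 0.57, adjusted p = 0.166). For Doxo+Cyta over Doxo it was 0.29 (SE 0.45, adjusted p = 0.764). The differences from NT rested on which NT library was used, and without NT 1 or NT 2 that of Doxo was 2.75 or 0.60 and that of Doxo+Cyta 3.04 or 0.89, none of them called.

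SLC22A18 encodes a membrane transporter of the organic cation transporter family and is the next member on the centromere side of CDKN1C, its start 14.0 kb away (chr11:2899721-2925246, plus strand). Its level was 6.38 and 6.25 CPM in NT, 7.12, 8.84 and 9.15 CPM in Doxo, 10.6, 9.27 and 11.7 CPM in Doxo+Cyta, and 0.796, 1.03, 1.26 and 1.27 CPM in Doxo+Cyta+DAC. All 4 decitabine relapses lay below all other libraries, and the 3 Doxo+Cyta libraries lay above the Doxo libraries, which in turn lay above NT. Relative to NT, SLC22A18 fell by 2.53 on the log2 scale (SE 0.21, adjusted p = 1.81e-06, edgeR), a 5.78-fold difference, and ranked 168 of 14164 genes from the lowest. The log2 fold change was -2.94 against Doxo (SE 0.20, adjusted p = 1.77e-07), and -3.27 against Doxo+Cyta (SE 0.19, adjusted p = 4.78e-08). Its higher level in Doxo+Cyta than in NT, 0.74 on the log2 scale, was not called (SE 0.20, adjusted p = 0.0771), although DESeq2 called it (adjusted p = 0.0261), as did edgeR without Doxo 4 (adjusted p = 0.0444), over a range of 0.0261 to 0.543 in all alternatives. Of its exon bases, 6.22% are shared with SLC22A18AS on the other strand, which held at most 4 counts in any library.

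KCNQ1OT1, the long noncoding RNA of the domain, lies within KCNQ1 (chr11:2608328-2699998, minus strand). It was read at 26.5 and 28.0 CPM in NT, 27.1, 27.1 and 24.0 CPM in Doxo, 28.8, 16.0 and 26.0 CPM in Doxo+Cyta, and 21.7, 22.5, 18.6 and 20.8 CPM in Doxo+Cyta+DAC. The decitabine relapses lay below NT and Doxo without overlap, and within the range of Doxo+Cyta, where library 20 was the lowest of all 12. The difference of -0.38 on the log2 scale from NT was not called (SE 0.19, adjusted p = 0.105, edgeR), nor were those of -0.32 from Doxo (SE 0.17, adjusted p = 0.115) and -0.17 from Doxo+Cyta (SE 0.17, adjusted p = 0.384). With Doxo+Cyta 20 left out, all 3 were called, at -0.40 (adjusted p = 0.0103), -0.31 (adjusted p = 0.0183) and -0.39 (adjusted p = 0.0111). Over all alternatives of the 3 comparisons KCNQ1OT1 lay between -0.42 and -0.01, and SLC22A18 between -3.36 and -2.40.

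PHLDA2 encodes a pleckstrin homology-like protein that restrains placental growth, and lies beyond SLC22A18, 43.7 kb from CDKN1C (chr11:2928273-2929420, minus strand). Its counts were 25 and 19 in NT, 38, 28 and 39 in Doxo, 25, 40 and 19 in Doxo+Cyta, and 29, 40, 42 and 22 in Doxo+Cyta+DAC. In CPM, the decitabine relapses spanned 1.74 to 2.75, all above NT (1.13 and 1.29) and overlapping both other groups. PHLDA2 was thus still read in the 4 libraries that held no CDKN1C. Its difference of 0.80 on the log2 scale from NT was not called (SE 0.36, adjusted p = 0.0801, edgeR) and was called without Doxo+Cyta 20 (0.78, adjusted p = 0.0468). The differences were -0.08 from Doxo (SE 0.30, adjusted p = 0.842) and 0.25 from Doxo+Cyta (SE 0.31, adjusted p = 0.498).

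At the borders of the domain, NAP1L4, a nucleosome assembly protein (chr11:2944430-2992377, minus strand), and TSSC4, a splicing factor of the U5 particle (chr11:2400488-2403878, plus strand), were the best counted members. NAP1L4 was 102 ± 1.97 CPM in NT (SD, n = 2), 102 ± 6.61 CPM in Doxo (n = 3), 103 ± 16.5 CPM in Doxo+Cyta (n = 3) and 119 ± 5.99 CPM after decitabine (n = 4). TSSC4 was 20.8 and 21.6 CPM in NT, 24.8, 25.4 and 24.9 CPM in Doxo, 18.9, 28.5 and 18.9 CPM in Doxo+Cyta, and 27.1, 27.6, 28.6 and 26.4 CPM after decitabine. Both means were highest in the decitabine relapses, by 0.22 (SE 0.12, adjusted p = 0.158, edgeR) and 0.37 (SE 0.16, adjusted p = 0.0708) on the log2 scale over NT, and neither was called. Their wide spread in Doxo+Cyta came with library 20, which held 122 CPM of NAP1L4 and 28.5 CPM of TSSC4. Without that library NAP1L4 was called higher over Doxo (0.23, adjusted p = 0.0201) and over Doxo+Cyta (0.35, adjusted p = 0.00406), and TSSC4 over NT (0.35, adjusted p = 0.0109) and over Doxo+Cyta (0.54, adjusted p = 0.000553). With the same library left out, the number of the 6 tested members called was 5 against NT, 4 against Doxo and 5 against Doxo+Cyta. The share of all genes called without that library was not counted. These calls, and those of KCNQ1OT1 and PHLDA2 above, therefore cannot be read as a result about the cluster.

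KCNQ1, the voltage-gated potassium channel gene of the domain (chr11:2444991-2849110, plus strand), held 1 and 0 counts in NT, 3, 2 and 2 in Doxo, 0, 2 and 1 in Doxo+Cyta and, after decitabine, 2, 0, 1 and 1. No library rose above the limit of 3 counts, so a loss in the decitabine relapses could not have been seen at this depth. Its exons share 3.45% of their bases with KCNQ1OT1, and reads over shared bases were not assigned to either gene.

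In the H19 domain, MRPL23-AS1 was the 1 member of 3 with enough counts to be tested, and it fell. It is a noncoding RNA between MRPL23 and H19 (chr11:1983209-1989920, minus strand), its start 896 kb from that of CDKN1C. Its counts were 68 and 52 in NT, 21, 31 and 15 in Doxo, 66, 35 and 61 in Doxo+Cyta, and 0, 0, 1 and 3 in Doxo+Cyta+DAC. No decitabine relapse exceeded the detection limit, while every other library did. Summed over libraries, its scaled level was 51.8-fold higher in NT than in Doxo+Cyta+DAC (95% counting interval 19.7 to 193), 22.1-fold higher in Doxo (8.25 to 83.6) and 53.3-fold higher in Doxo+Cyta (20.4 to 198). The fitted log2 fold changes were -5.52 against NT (SE 0.57, adjusted p = 8.31e-06, edgeR), -4.30 against Doxo (SE 0.61, adjusted p = 4.2e-05) and -5.56 against Doxo+Cyta (SE 0.54, adjusted p = 1.58e-06). These were the 12th, 19th and 9th lowest of the 14164 tested genes. MRPL23-AS1 had enough counts to be tested only through the groups other than Doxo+Cyta+DAC. A gene this low after decitabine could enter these comparisons only as a fall, so the p-values and ranks are a description. As groups at or near 0 counts move a fitted value, it ran from -6.91 to -5.12 against NT, from -5.68 to -3.90 against Doxo and from -6.95 to -5.16 against Doxo+Cyta over the alternatives, the lowest each time without Doxo+Cyta+DAC 33 and the highest without Doxo+Cyta+DAC 30, and each alternative kept the call.

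MRPL23-AS1 was also lower in Doxo than in NT, without overlap of libraries. The difference of -1.22 on the log2 scale was not called (SE 0.41, adjusted p = 0.0675, edgeR) but passed in 5 of 16 alternatives, among them DESeq2 (adjusted p = 0.0280), over a range of 0.0280 to 0.305. It was not lower in Doxo+Cyta than in NT (0.04, SE 0.39, adjusted p = 0.971). MRPL23, the mitochondrial ribosomal protein gene next to it, shares no exon bases with it and was chosen here after its values were seen. It was 8.65 ± 0.197 CPM in NT (SD, n = 2) and 13.2 ± 1.02 in Doxo+Cyta+DAC (n = 4), a log2 difference of 0.61 that was not called (SE 0.29, adjusted p = 0.0961). In the decitabine relapses MRPL23 was called higher than in Doxo (0.76, SE 0.26, adjusted p = 0.0189, edgeR). It was not called against Doxo+Cyta (0.29, SE 0.25, adjusted p = 0.328).

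H19, the long noncoding RNA of its domain (chr11:1995176-2001466, minus strand), held 1 count in Doxo 4, 1 in Doxo+Cyta 22 and 0 in the other libraries. IGF2, which encodes insulin-like growth factor 2 (chr11:2129112-2149603, minus strand), held 1 count in Doxo+Cyta+DAC 32 and 0 elsewhere. Both were thus at or under the detection limit in all 12 libraries, and the relapses after decitabine did not differ detectably at this depth. Reads could also be lost where genes overlap, as 77.5% of IGF2 exon bases are shared with IGF2-AS and INS-IGF2 and 36.0% of H19 exon bases with HOTS and MIR675. IGF2-AS held at most 1 count in any library and INS-IGF2 held 0. HOTS, which is read from the strand opposite to H19 and is named after its values were seen, held 10 and 5 counts in NT, 1, 0 and 3 in Doxo, 7, 8 and 6 in Doxo+Cyta and 0 in each decitabine relapse. It was at least 2.07-fold higher in NT and 2.26-fold higher in Doxo+Cyta than the limit in Doxo+Cyta+DAC, while Doxo was itself at or under the limit.

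Among the relapses without decitabine, edgeR called 0 of the 6 tested members for Doxo over NT (10.7% of all genes), 0 for Doxo+Cyta over NT (1.46%) and 0 for Doxo+Cyta over Doxo (3.4%). At an unadjusted p under 0.05 the numbers were 2, 1 and 1, and DESeq2 called 1 in each. All decitabine libraries lay below all 8 others in 2 of the 6 members, SLC22A18 and MRPL23-AS1, as they did in 20.1% of all tested genes.

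**Figure D2:**
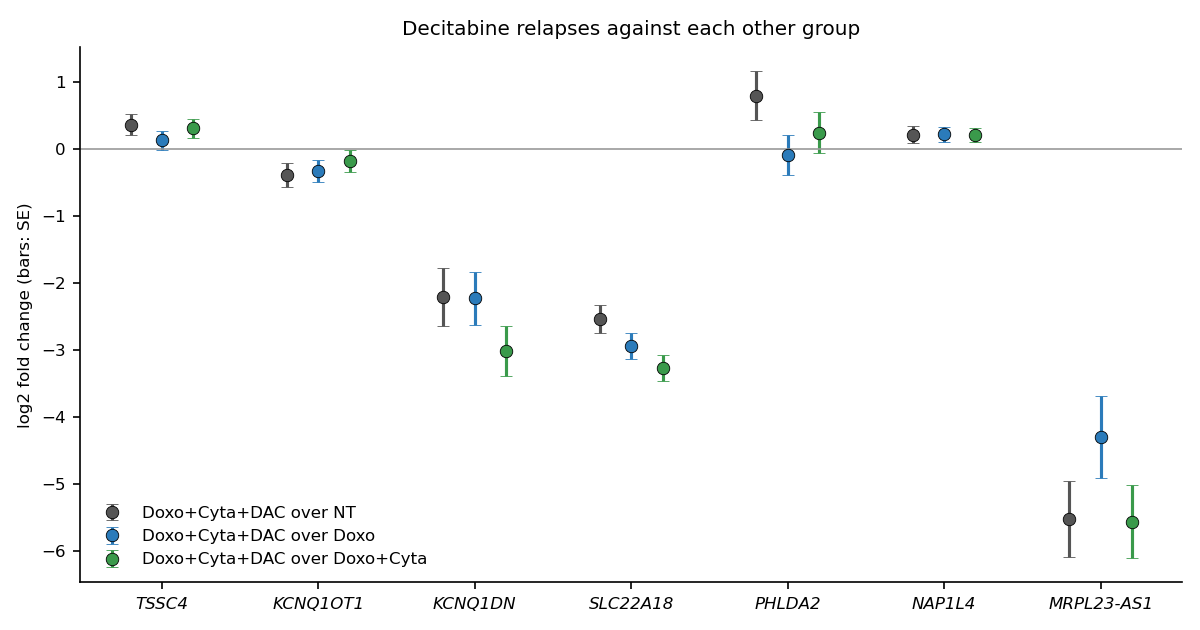
Log2 fold change (vertical axis, bars for SE) of the 6 tested members and KCNQ1DN in Doxo+Cyta+DAC over NT, over Doxo and over Doxo+Cyta. Genes from TSSC4 to NAP1L4 are in order along the chromosome, and MRPL23-AS1, which lies before TSSC4, is drawn last. KCNQ1DN, SLC22A18 and MRPL23-AS1 lie below -2 in all 3 comparisons, whereas TSSC4, KCNQ1OT1, PHLDA2 and NAP1L4 lie between -0.38 and 0.80.

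Per kilobase of exon, the order of levels in NT was NAP1L4 (40.7 ± 0.784 CPM per kb), TSSC4 (8.44 ± 0.221), SLC22A18 (3.89 ± 0.0542), MRPL23-AS1 (1.73 ± 0.149), PHLDA2 (1.31 ± 0.119), KCNQ1OT1 (0.297 ± 0.0120) and CDKN1C (0.259 ± 0.236), with KCNQ1, H19 and IGF2 under the limit. KCNQ1OT1 and CDKN1C did not differ beyond the spread of CDKN1C in NT. In Doxo+Cyta+DAC the order was NAP1L4 (47.3 ± 2.38), TSSC4 (10.9 ± 0.361), PHLDA2 (2.3 ± 0.512), SLC22A18 (0.670 ± 0.137) and KCNQ1OT1 (0.228 ± 0.0185), and the others were under the limit. SLC22A18 and PHLDA2 changed places between those groups. In Doxo, PHLDA2 (2.44 ± 0.591) stood above MRPL23-AS1 (0.738 ± 0.227) and CDKN1C (0.641 ± 0.274), and these last 2 did not differ beyond their spread. In Doxo+Cyta, PHLDA2 (1.95 ± 0.851) and MRPL23-AS1 (1.78 ± 0.485) did not differ beyond theirs.

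On the other side of CDKN1C, KCNQ1DN starts 15.7 kb before it (chr11:2870033-2872106, plus strand). It held 15 and 18 counts in NT, 12, 16 and 16 in Doxo, 30, 28 and 18 in Doxo+Cyta, and 3, 2, 3 and 4 in Doxo+Cyta+DAC. All decitabine relapses lay below all other libraries, and 1 of them exceeded 3 counts. The log2 fold change of KCNQ1DN was -2.2 against NT (SE 0.43, adjusted p = 0.000872, edgeR), -2.22 against Doxo (SE 0.40, adjusted p = 0.000293) and -3.01 against Doxo+Cyta (SE 0.37, adjusted p = 1.11e-05). Like MRPL23-AS1, KCNQ1DN had enough counts to be tested only through the groups other than Doxo+Cyta+DAC, so these p-values are a description. KCNQ1-AS1, an antisense transcript 24.2 kb before CDKN1C, was under the filter and held 1, 0, 1 and 2 counts in the decitabine relapses against 3 to 15 in the other 8 libraries. Summed over libraries it was 3.45-fold higher in NT (95% counting interval 0.925 to 15.7), 6.27-fold in Doxo (2.09 to 25.4) and 7.90-fold in Doxo+Cyta (2.71 to 31.3).

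Lower genes thus lay on both sides of CDKN1C, KCNQ1DN before it and SLC22A18 after it, and the next members outward, KCNQ1OT1 and PHLDA2, differed from NT by less than 1 log2 unit. To take neighbours by position alone, all 57 genes that lie wholly between 1.5 and 3.5 Mb of chromosome 11 were counted. Of these 17 had 0 counts in all libraries and 22 were tested, 15 of them outside the members. Of the 15, the decitabine relapses were higher than NT in 4 and lower in 4 (53.3%, beside 48.7% of all tested genes), with a median log2 fold change of -0.02 against 0.02 over all genes. Against Doxo, 5 were higher and 7 lower (80.0%, beside 59.5%), with a median of -0.25, and against Doxo+Cyta 4 were higher and 5 lower (60.0%, beside 60.3%), with a median of -0.18. Calls in the band thus went both ways.

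The window genes that fell against NT were LSP1, an actin-binding protein of leukocytes (-2.33, SE 0.23), KCNQ1DN, C11orf21 (-1.92, SE 0.16) and TSPAN32, a tetraspanin of blood cells (-1.24, SE 0.20). C11orf21 and TSPAN32 start next to each other, 584 kb from CDKN1C. LSP1 was 7.10 and 7.62 CPM in NT, 3.84, 4.07 and 3.60 CPM in Doxo, 5.25, 7.67 and 5.86 CPM in Doxo+Cyta, and 1.65, 1.44, 1.68 and 0.950 CPM in Doxo+Cyta+DAC, so that every decitabine relapse lay below all others. LSP1 and C11orf21 had also fallen in Doxo over NT, by 0.94 (SE 0.23, adjusted p = 0.0217, edgeR) and 0.62 (SE 0.17, adjusted p = 0.0324). The window genes that rose were DUSP8, a phosphatase of MAP kinases (1.74, SE 0.50), CARS, the cysteinyl-tRNA synthetase (0.97, SE 0.19), ZNF195, a zinc finger gene (0.95, SE 0.20), and CD81, a tetraspanin (0.63, SE 0.16). DUSP8 also rose in Doxo over NT (2.71, SE 0.50, adjusted p = 0.00641, edgeR), and it was lower in the decitabine relapses than in Doxo (-0.97, SE 0.35, adjusted p = 0.0280). CARS lies 172 kb beyond CDKN1C and was 51.8 to 58.8 CPM in the decitabine relapses against 18.9 to 31.9 CPM in the other libraries.

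**Figure D3:**
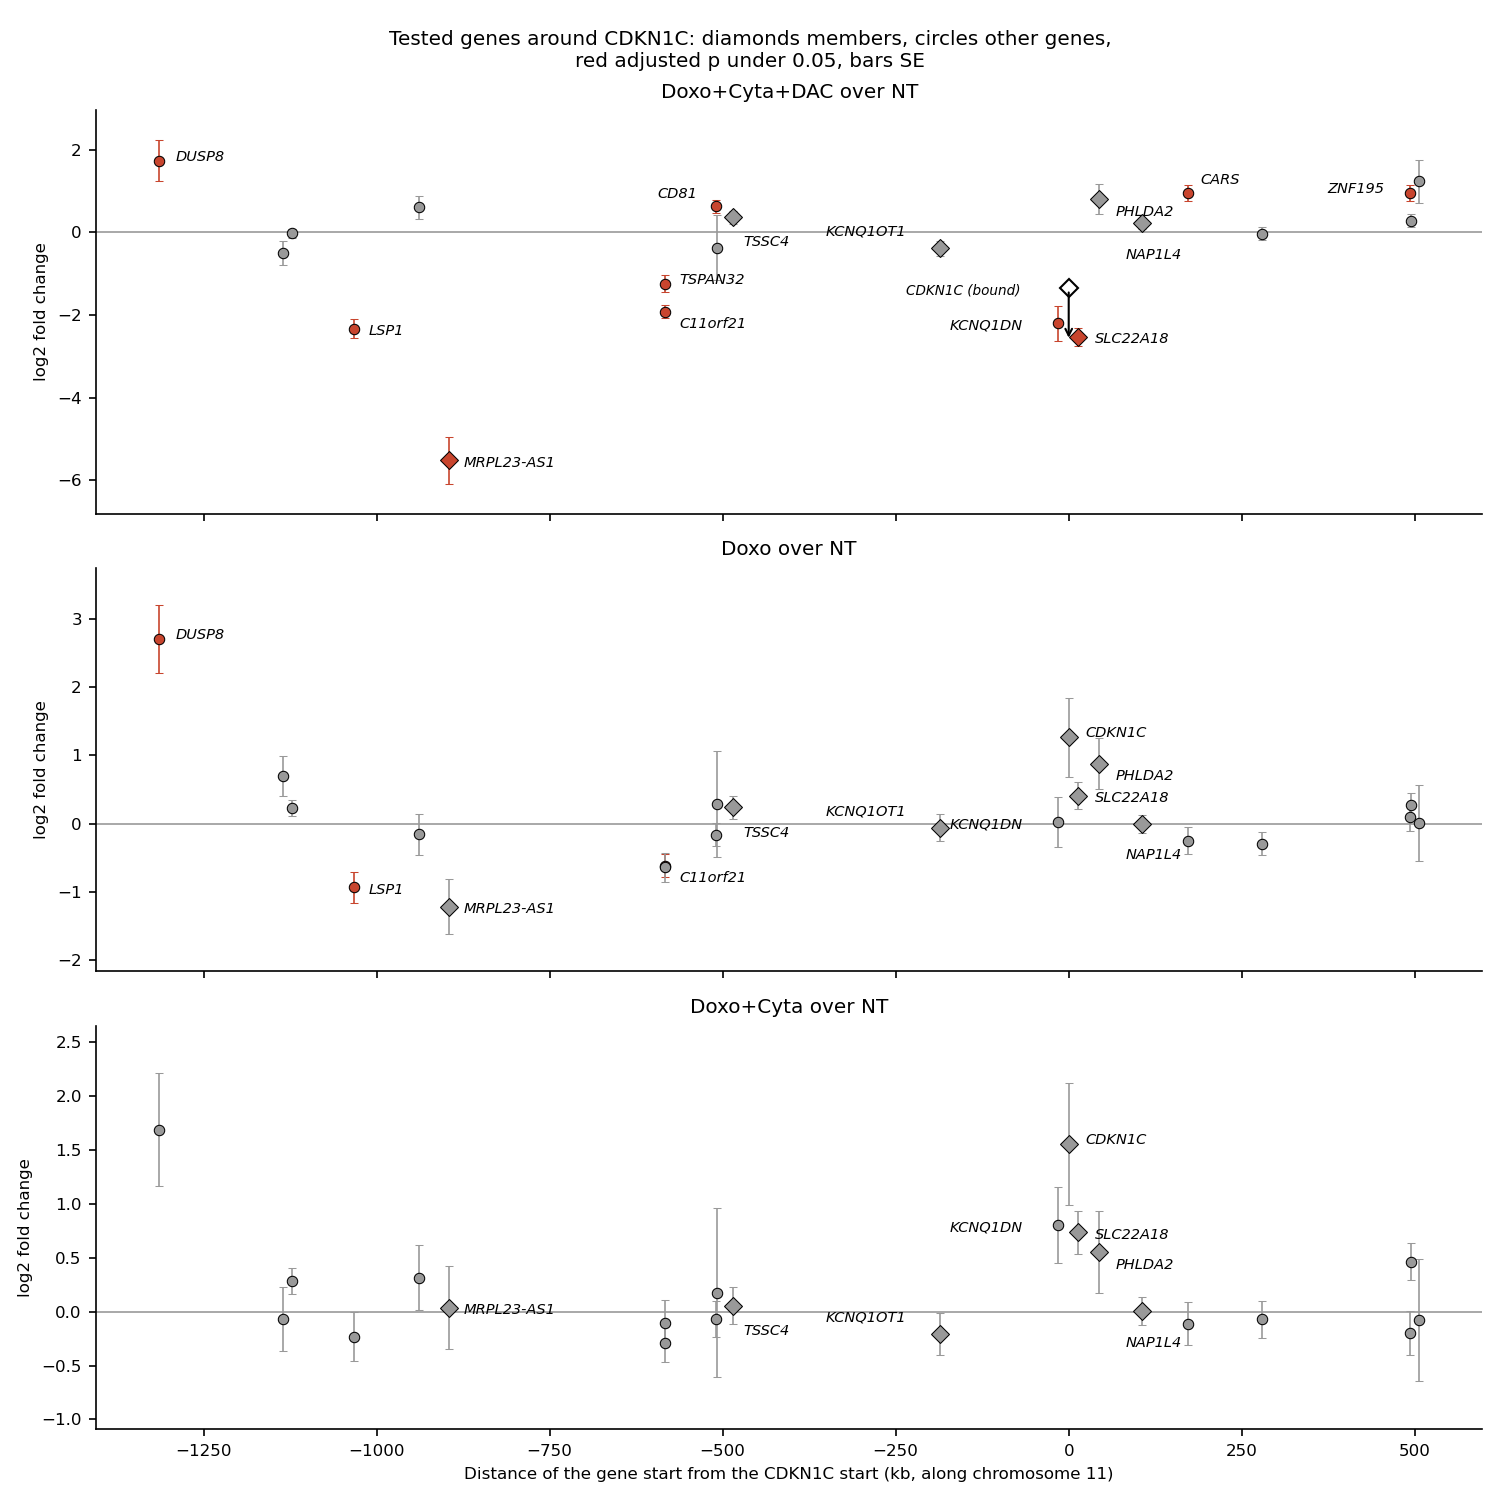
Log2 fold change (vertical axis, bars for SE) of the tested genes between 1.5 and 3.5 Mb of chromosome 11 against the distance of their start from that of CDKN1C (horizontal axis, kb), in Doxo+Cyta+DAC, Doxo and Doxo+Cyta over NT, with diamonds for members, circles for other genes and red for adjusted p under 0.05. In the top panel KCNQ1DN (-2.2) and SLC22A18 (-2.53) flank CDKN1C, drawn open at its bound of 2.55-fold with an arrow, and genes farther out lie on both sides of 0. C11orf21 and TSPAN32 overlap in the middle panel.

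By its pattern over the 12 samples, CDKN1C was most like TNXB, RNF181, CLK3, APOL3 and PHF1, with Pearson's r of log2 CPM of 0.98 each. These genes were counted in every decitabine relapse, for example 12 to 20 counts of TNXB against 32 to 97 elsewhere. Among the members and named neighbours, r with CDKN1C was 0.95 for SLC22A18 (rank 231 of 14163 genes), 0.89 for KCNQ1DN (rank 1247) and 0.85 for MRPL23-AS1 (rank 1886). It was 0.38 for KCNQ1OT1, -0.17 for PHLDA2, -0.55 for TSSC4 and -0.71 for NAP1L4. The samples share 4 groups and their depths, and the low counts of CDKN1C limit these values, which are a description. They also include the decitabine relapses, whose 0 counts chose CDKN1C, so a gene that is low there scores high through that choice. Every decitabine library lay below every other library in 20.1% of tested genes.

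The factors that write, keep or read imprints were followed as a list of 20 genes, of which 17 were tested. Against NT, 7 were higher and 2 lower in Doxo+Cyta+DAC (52.9%, beside 48.7% of all genes), with a median log2 fold change of 0.25 against 0.02. UHRF1, which brings the maintenance methyltransferase to hemimethylated DNA, rose by 1.56 (SE 0.30, adjusted p = 0.000834, edgeR) and that enzyme itself, DNMT1, by 0.61 (SE 0.18, adjusted p = 0.0111). HNRNPK, an RNA-binding protein that links noncoding RNAs to Polycomb complexes, rose by 0.75 (SE 0.09, adjusted p = 2.36e-05). DNMT3A, a de novo methyltransferase, fell by 0.79 (SE 0.12, adjusted p = 0.000194) and EZH1, a Polycomb histone methyltransferase, by 1.25 (SE 0.15, adjusted p = 2.08e-05). Against Doxo 11 were higher and 2 lower (76.5%, beside 59.5% of all genes), and against Doxo+Cyta 9 were higher and 3 lower (70.6%, beside 60.3%).

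The list of CDKN1C partners held its kinase targets, their cyclins, sister inhibitors and proteins of the RB family, and all 17 genes were tested. Against NT, 7 were higher and 2 lower in the decitabine relapses (52.9%, beside 48.7% of all genes), with a median of 0.11. Against Doxo 8 were higher and 5 lower, and against Doxo+Cyta 10 were higher and 3 lower (76.5% each, beside 59.5% and 60.3%). CDKN1A, which encodes the sister inhibitor p21, rose by 2.44 (SE 0.53, adjusted p = 0.00189, edgeR), while CDKN1B, which encodes the other sister, p27, fell by 0.94 (SE 0.22, adjusted p = 0.00313). CDKN1A was 11.1 to 11.4 CPM in NT, 81.4 to 128 CPM in Doxo, 11.9 to 45.9 CPM in Doxo+Cyta and 34.5 to 91.5 CPM in Doxo+Cyta+DAC, so the decitabine relapses overlapped both other relapse groups. CDK4, a kinase of G1 phase, rose by 1.21 (SE 0.19, adjusted p = 0.000177) and RBL1, a pocket protein of the RB family, by 1.35 (SE 0.19, adjusted p = 6.82e-05), while RBL2, its relative, fell by 1.5 (SE 0.20, adjusted p = 5.75e-05). CDKN1C, which was chosen for having no reads after decitabine, was thus the member of its inhibitor family without reads there. Its 2 sisters were read and went in opposite directions against NT. They also did so against Doxo+Cyta, at 1.37 for CDKN1A (SE 0.42) and -1.29 for CDKN1B (SE 0.20), both called. Against Doxo both were lower, at -0.69 for CDKN1A (SE 0.40, not called) and -0.79 for CDKN1B (SE 0.20, called).

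Although IGF2 itself was not detected, 13 of the 17 genes of its pathway list were tested, with 4 higher and 3 lower against NT (53.8%, beside 48.7% of all genes) and a median of 0.33. IGF2BP3, an RNA-binding protein of IGF2 transcripts, rose by 0.96 (SE 0.14, adjusted p = 0.000107, edgeR), as did the IGF-binding proteins IGFBP5, by 1.06 (SE 0.25, adjusted p = 0.00356), and IGFBP2, by 1.08 (SE 0.41, adjusted p = 0.0416). IGF1R, the receptor that binds IGF2, fell by 0.74 (SE 0.18, adjusted p = 0.00406) and IGF2BP2 by 0.55 (SE 0.13, adjusted p = 0.00371). IGFBP7 fell by 2.27 (SE 0.62, adjusted p = 0.00792), from 0.463 and 0.833 CPM in NT to 0.0687 to 0.184 CPM, at or near the detection limit. IGFBP7 too had enough counts to be tested only through the groups other than Doxo+Cyta+DAC, so its p-value is a description. The median turned to -0.25 against Doxo and -0.42 against Doxo+Cyta, where 4 were higher and 5 lower in each (69.2%, beside 59.5% and 60.3% of all genes).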

How the data were processed

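RNA of 12 HEL libraries was sequenced by the authors as TruSeq paired-end reads, and per the study's methods, the submitters' processing notes and the file header the reads were checked with FastQC, aligned with Bowtie2 2.2.8 to GRCh38 and summed per gene with featureCounts 1.6.0 without regard to strand. The deposited values are raw counts, not normalized. Bowtie2 does not split reads over exon junctions, fragments over 2 genes were not counted, and counts of 6 members add copies on alternate contigs. Of 26485 genes, 4 lacked a count. Reads are not unique molecules, so limits and intervals cover counting error only. All 12 columns were mapped to samples, and 0 other sample columns were used. No libraries were duplicates of each other.

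Counts were tested with edgeR 4.0.16 in R 4.3.3 (filterByExpr, TMM, 1 quasi-likelihood fit of all 12 libraries, two-sided, Benjamini-Hochberg over 14164 genes per comparison). SE is the log2 fold change over the root of F. The test was checked on simulated data. DESeq2 1.42.0, RLE scaling, no filter, a fold limit, a narrower window, fits of only the compared groups and leaving out each library were tried. Gene coordinates are of GRCh38. Figures used Python 3.11.15. All 10 members are named, with the 3 genes of each list and 5 of the window that changed most in each direction against NT, neighbours whose symbols hold that of a member, and the 5 genes most like CDKN1C. Members and lists were chosen with earlier results of these data known. Libraries are cultures from 1 starting line, so p-values measure the spread between cultures of that line.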

Additional observations from a re-analysis of the deposited data

Results flagged for a closer look

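DUSP8, the phosphatase gene at the far end of the 11p15 window, had 1 library far from the others of its group. In Doxo+Cyta+DAC 31 it was 3.71 CPM, against 1.15, 1.27 and 1.41 CPM in the other 3 decitabine relapses, a gap of 0.901 of the range of the group. It was the only one flagged of 33 genes checked. With so many genes checked such a gap can arise by chance, and how often it does was not tested.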

How the results depend on the processing

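No paired analysis was possible because the groups share no replicate numbers. SLC22A18 and MRPL23-AS1 kept their fall and their call in the 3 decitabine comparisons under all 16 alternatives. Of the 6 tested members, fits of only the groups compared called 5 in Doxo+Cyta+DAC over NT, 4 over Doxo and 1 in Doxo over NT, no filter called 1 in Doxo over NT, and DESeq2 called 1 in each comparison without decitabine. Leaving out 1 library gave 2 to 5, 2 to 4 and 2 to 5 members over NT, Doxo and Doxo+Cyta, the highest each time without Doxo+Cyta 20, and 0 to 1 in the other comparisons (1 without Doxo+Cyta 20 or Doxo+Cyta+DAC 33 in Doxo over NT, without Doxo 4 in Doxo+Cyta over NT and without Doxo+Cyta 20 in Doxo+Cyta over Doxo). The cause was not tested, and the shares of all genes called under these alternatives were not counted. When 1 NT library is left out, the other is assumed to vary like the remaining groups.

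In the 11p15 window, with CDKN1C counted, 11, 15 and 12 of 22 genes were called in Doxo+Cyta+DAC over NT, Doxo and Doxo+Cyta. The shares of all tested genes called were 48.7%, 59.5% and 60.3%. The call of CDKN1C there follows from its choice and is no support. Outside the members, 8, 12 and 9 of 15 were called. With CDKN1C counted, 3 were called in Doxo over NT (10.7% of all genes), and 0 in Doxo+Cyta over NT (1.46%) and over Doxo (3.4%). In that order, from Doxo+Cyta+DAC over NT to Doxo over NT, the counts with CDKN1C were 7, 4, 6 and 1 with the natural log of the fold change beyond 1, which calls fewer by construction. They were 6, 6, 6 and 0 in the window from 2.3 to 3.2 Mb, which holds fewer genes. DESeq2 called 5 in Doxo over NT and 2 in each comparison of Doxo+Cyta, and no filter 5 in Doxo over NT. Leaving out 1 library gave 10 to 16, 12 to 17, 11 to 15, 0 to 6, 0 to 1 and 0 to 2. In Doxo over NT it was 0 without either NT library, 6 without Doxo 4, 5 without Doxo+Cyta 20 and 1 without Doxo 5 or Doxo 6. It was 1 in Doxo+Cyta over NT without Doxo 4 or Doxo+Cyta+DAC 31, and in Doxo+Cyta over Doxo 2 without Doxo 4 and 1 without Doxo+Cyta 20 or Doxo+Cyta+DAC 31.

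Signs turned only in differences that were not called. NAP1L4 in Doxo+Cyta over NT went from 0.0055 to -0.0075 with RLE scaling, -0.0077 with DESeq2, -0.013 with only the groups compared and -0.038 with no filter, and MRPL23-AS1 there to -0.0087 with no filter. Leaving out 1 library, the log2 fold changes ran from -0.30 to 0.076 for KCNQ1OT1 in Doxo+Cyta over Doxo, -0.26 to 0.065 for PHLDA2 in Doxo+Cyta+DAC over Doxo, -0.090 to 0.013 for NAP1L4 in Doxo over NT, -0.16 to 0.068 in Doxo+Cyta over NT and -0.12 to 0.10 in Doxo+Cyta over Doxo, -0.19 to 0.14 for TSSC4 in Doxo+Cyta over NT and -0.14 to 0.22 for MRPL23-AS1 in Doxo+Cyta over NT. With TMM or RLE scaling, the median log2 fold change of all tested genes lay between -0.0073 and 0.024 in every comparison. Depth limits KCNQ1, H19 and IGF2, at most 3 counts each, and any further fall of CDKN1C.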

Other observations

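Genes with 0 counts in all 4 decitabine relapses and more than 3 counts in every Doxo and Doxo+Cyta library numbered 4 in the table: CDKN1C, SFTPA2, MYO15A and LINC00570. They were found after the values were seen, and no other member of the 11p15 cluster was among them. MYO15A, an unconventional myosin gene, held 12 to 13 counts in NT, 6 to 10 in Doxo and 8 to 15 in Doxo+Cyta. SFTPA2, a surfactant protein gene with a near-identical copy, held 5 to 10, 5 to 14 and 7 to 16 counts, and LINC00570 held 4, 4 to 5 and 6 to 11. CDKN1C was the best counted of the 4 in Doxo+Cyta, with 19 to 28 counts.

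Chromosome 11 around the window moved as follows in Doxo+Cyta+DAC over NT. Of 45 tested genes before 1.5 Mb, 12 were higher and 17 lower (64.4%, beside 48.7% of all tested genes), with a median log2 fold change of -0.11. Of 53 tested genes from 3.5 to 10 Mb, 8 were higher and 16 lower (45.3%), with a median of -0.30, and over the 805 tested genes of the chromosome outside the window 195 were higher and 210 lower (50.3%), with a median of -0.01.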
